A study of Mus musculus with 12 samples.

Results

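The response of unstressed C2C12 myotubes to ginsenoside Rc (gRc) given alone was examined in 6 of the 12 RNA-seq libraries of the study, the 3 titled gRc and the 3 titled Vehicle. C2C12 is an established mouse myoblast line that fuses into multinucleated myotubes when serum is lowered, and here it was differentiated for 5 days. The vehicle group received 0.02% DMSO for 24 h and the gRc group received 10 µM gRc, a ginseng saponin with a steroid-like skeleton, for 24 h. Because gRc was dissolved in DMSO, the solvent was present in both groups. In the other 6 libraries, myotubes pretreated with vehicle or with 10 µM gRc for 18 h were exposed to 0.25 mM H2O2 for 6 h (H2O2 and gRc+H2O2, 3 libraries each). The labels of gRc+H2O2 disagree on the pretreatment, which is 18 h in the description and 24 h in the tag of treatment time. These served for the spread between libraries and for a comparison of the gRc effect with and without H2O2. One dose and 1 time point of gRc were measured in 1 cell line. The label of the cell type reads myoblasts, whereas the protocol describes myotubes, and all 7 of the myotube marker genes examined had counts in each of the 6 libraries, with embryonic myosin Myh3 between 2773 and 6270 CPM there.

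Muscle fibers adapt their mitochondria through PGC-1α (Ppargc1a), a coactivator that works with the nuclear respiratory factors and the estrogen-related receptors to raise transcription of nuclear genes for the respiratory chain and for the mitochondrial DNA machinery. Muscle protein breakdown runs in part through the ubiquitin ligases atrogin-1 (Fbxo32) and MuRF1 (Trim63), which FOXO factors activate. MyoD (Myod1) drives the muscle program in myoblasts and early myotubes. The comparison with vehicle asks what gRc does to these transcripts without an oxidant.

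No transcript passed the test for a difference between gRc and vehicle. Of 14838 genes with enough counts, 0 were higher (0%) and 0 were lower (0%) at an adjusted p under 0.05 in edgeR's quasi-likelihood test. DESeq2 on the same 12 libraries called 0 of 25884 genes, with 96 at an unadjusted p under 0.05, and limma on log2(TPM + 0.5) called 0, with 122. An unadjusted p under 0.05 was reached by 74 genes (0.499%), and the smallest unadjusted p was 0.00171. When replicate numbers entered the fit as a block within the 6 libraries, 0 of 14200 genes passed (0%) and 45 (0.317%) had an unadjusted p under 0.05. That block fit called 42 genes without pair 1, of which 34 were predicted genes or pseudogenes, 2 without pair 3 and 0 without pair 2, and DESeq2 with the block called 2. The shares of 0.499% and 0.317% were far below the 0.05 of genes that a calibrated test gives without any effect. The tests were thus conservative here, and 0 calls do not show that gRc had no effect. Without vehicle replicate 3, 610 genes had an unadjusted p under 0.05 in edgeR and 0 passed. The typical gene nevertheless was measured with some precision. The median SE of the log2 fold change was 0.26, and 0.208 with the block. The 95% interval of the fold change lay within a 2-fold difference in either direction for 10601 genes (71.4%), within 1.5-fold for 5256 (35.4%) and within 4-fold for 14058 (94.7%). Of the 10842 genes whose average log2 CPM reached 2, the interval lay within 2-fold for 9226 (85.1%). For most transcripts of that level a change of more than 2-fold therefore lay outside the interval, while smaller ones could not be told from 0 with 3 libraries a group. The smallest adjusted p in edgeR rounded to 1, so the genes named below are described by their levels, fold changes and SE.

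**Figure D1:**
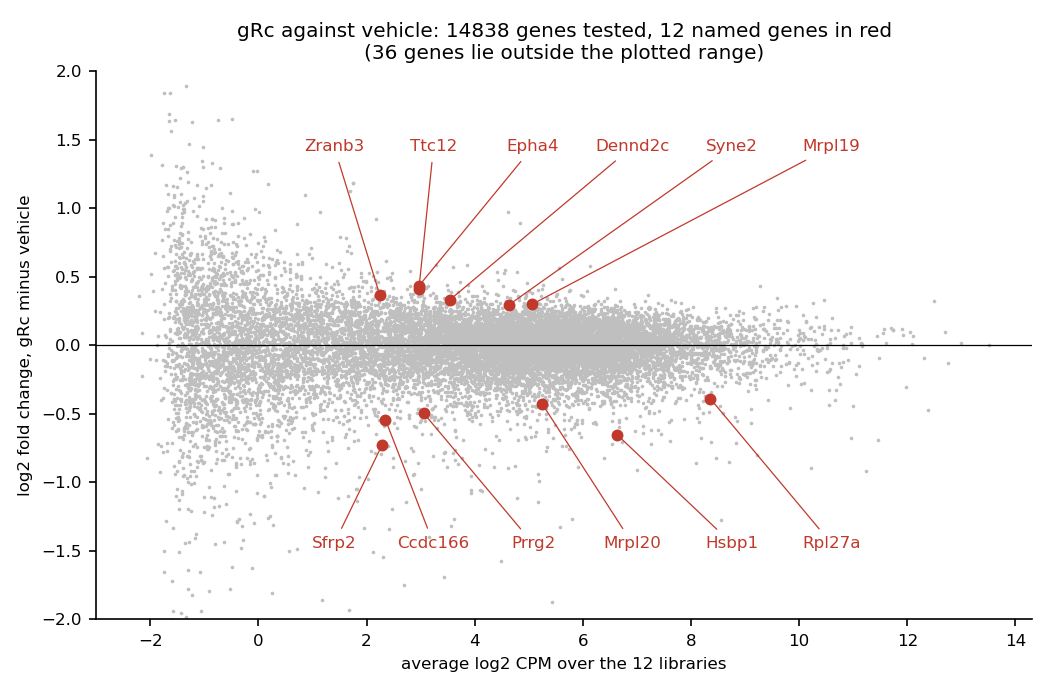
Log2 fold change of gRc against vehicle (vertical axis, log2) by average level over the 12 libraries (horizontal axis, log2 CPM) for 14838 genes, with the 6 genes of smallest unadjusted p in each direction among known genes of sufficient level in red. The red genes lie between -0.73 and 0.43, and 36 genes outside a log2 range of 2 are not drawn.

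The 6 libraries held between 19274729 and 29519269 counts and did not resemble each other equally. Vehicle replicate 1 was the shallowest and stood apart on the first principal component of all 12 libraries (43.1% of variance), at -68.6 against 5.92 and 82.3 in vehicle replicates 2 and 3 and -0.142, -18.8 and 84.2 in gRc replicates 1, 2 and 3. Mitochondrial mRNAs took 0.0576%, 0.624% and 4.30% of counts in vehicle replicates 1, 2 and 3 and 0.457%, 0.447% and 4.23% in the gRc replicates, so replicate 3 was high in both groups. Genes poor in GC were lower relative to GC-rich genes in vehicle replicate 1, by -0.83 on the log2 scale from the mean of all libraries, against -0.01 and 0.30 in the other vehicle libraries and -0.07, -0.18 and 0.42 with gRc. Within replicate number 1 the gene-wise differences between gRc and vehicle had an SD of 0.825 on the log2 scale, with 1426 genes more than 2-fold higher and 837 more than 2-fold lower. The SD was 0.427 in replicate 2 and 0.329 in replicate 3, where 119 genes were more than 2-fold higher and 95 lower. Across genes these differences correlated with log transcript length at -0.06 in replicate 1, 0.003 in replicate 2 and 0.35 in replicate 3. Longer transcripts thus tended to be higher with gRc in replicate 3. The differences of replicates 1 and 2 correlated across genes, which are not independent replicates, at -0.40. Those of replicates 1 and 3 correlated at -0.03 and those of replicates 2 and 3 at 0.01, so no pattern over all genes recurred between pairs. The medians of cytosolic ribosomal proteins and of nuclear respiratory chain genes, given below, were nevertheless below 0 in both replicates 2 and 3. Leaving out vehicle replicate 1 gave 0 calls as well, and values without that library are given for the named genes and list medians whose sign turned.

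None of the genes of the mitochondrial program passed the test. Ppargc1a itself was scarce, at 0.388, 0.934 and 1.43 CPM in vehicle and 0.611, 0.772 and 0.803 CPM with gRc (7 to 40 counts a library). The gRc values lay within the vehicle range, and the log2 fold change of -0.35 had a 95% interval from -1.303 to 0.59. The nuclear respiratory factor Nrf1 measured 16.4, 20.6 and 18.2 CPM in vehicle and 18.9, 16.9 and 21.8 CPM with gRc, a log2 fold change of 0.06 with an interval from -0.24 to 0.36, within 1.5-fold in either direction, and -0.014 without vehicle replicate 1. Neither gene had the same sign in all replicate pairs.

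Of 34 measured regulators of mitochondrial biogenesis, 0 passed in either direction, 20 lay above 0 and the median log2 fold change was 0.08, or 0.04 without vehicle replicate 1, against a median of 0.00179 and 50.4% above 0 over all 14838 genes. The members with the smallest unadjusted p were Esrra, the estrogen-related receptor that partners PGC-1α, and Twnk, the helicase of mitochondrial DNA replication. Esrra stood at 134.9, 52.7 and 36.4 CPM in vehicle and 56.3, 61.6 and 32.7 CPM with gRc. Its log2 fold change of -0.57 (SE 0.42) came from vehicle replicate 1 and was 0.17 without that library. Twnk measured 20.5, 31.3 and 21.9 CPM in vehicle and 31.6, 32.5 and 23.1 CPM with gRc, higher in every pair but with overlapping groups (0.24, SE 0.18). Higher in all 3 pairs were 4 of the 34 members (11.8%), namely Twnk, Gabpa, Esrrb and Foxo1, which were picked out after their values were seen, against 1052 of all genes (7.09%), and 0 were lower in all 3 pairs, against 999 (6.73%).

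Among the nuclear genes of the respiratory chain, 0 of 79 passed, 25 lay above 0 and the median was -0.08. The median was 0.16 in replicate 1, -0.08 in replicate 2 and -0.28 in replicate 3, so pair 1 differed in direction from the others. Without vehicle replicate 1 the median was -0.13, and in pairs 2 and 3 alone it was -0.16 with 18 of 79 above 0. Lower in all 3 pairs were 7 of the 79 members (8.86%), close to the background of 6.73%, and 0 were higher. Ndufb11, a subunit of complex I, measured 93.6, 89.1 and 89.1 CPM in vehicle and 78.1, 84.2 and 62.9 CPM with gRc. The groups did not overlap, which was so for 110 of all genes in that direction (0.741%), and the log2 fold change was -0.27 (SE 0.14). Ndufa7, another complex I subunit, was lower in each pair, at 103.8 against 69.3, 42.9 against 35.4 and 97.6 against 80.3 CPM. Cox6b1, a subunit of cytochrome c oxidase, was at 825.8, 191.9 and 227.4 CPM in vehicle and 235.9, 284.1 and 167.2 CPM with gRc, and its log2 fold change of -0.86 became 0.13 without vehicle replicate 1.

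The 13 mRNAs of the mitochondrial genome could not be compared with any precision. The median log2 difference was 2.23 in replicate 1, -0.49 in replicate 2 and -0.10 in replicate 3, the fitted median was -0.04, or -0.60 without vehicle replicate 1, and 0 of 13 intervals lay within 2-fold. One of them, mt-Nd4, a subunit of complex I, was among the genes of smallest unadjusted p within pairs, at 79.6 against 234.3, 356.2 against 534.4 and 4456 against 5186 CPM. Replicate 3 was far above the others in both groups, and the fitted difference was 0.28 with an interval from -2.57 to 3.14, or -0.28 without vehicle replicate 1. RSEM divides fragments that match several genes, and 7 genes of chromosome 1 (between Gm28439, at 24611535 to 24612410, and Gm29216, at 24615706 to 24616197, GRCm38) consist to at least 50% of 50-base words found in mitochondrial mRNAs. Gm28439 holds 62.2% of the words of mt-Nd4 and was listed at 169, 6864 and 0 counts in vehicle and 1733, 115 and 7 with gRc. In replicate 2 mt-Nd4 had 10300 counts in vehicle and 13157 with gRc. The fall of Gm28439 there exceeded this rise, so mt-Nd4 and Gm28439 together were not higher in every pair. Cytochrome c oxidase subunit mt-Co3 was listed at 0, 2975 and 26844 counts in vehicle and at 1145, 2 and 18704 counts with gRc, so each group held a library at 0 or 2 counts beside libraries with at least 1145. With the copies added, the mitochondrial share was 0.115%, 1.00% and 6.53% in vehicle and 0.746%, 0.671% and 6.12% with gRc, and the ranges of the groups overlapped.

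**Figure D2:**
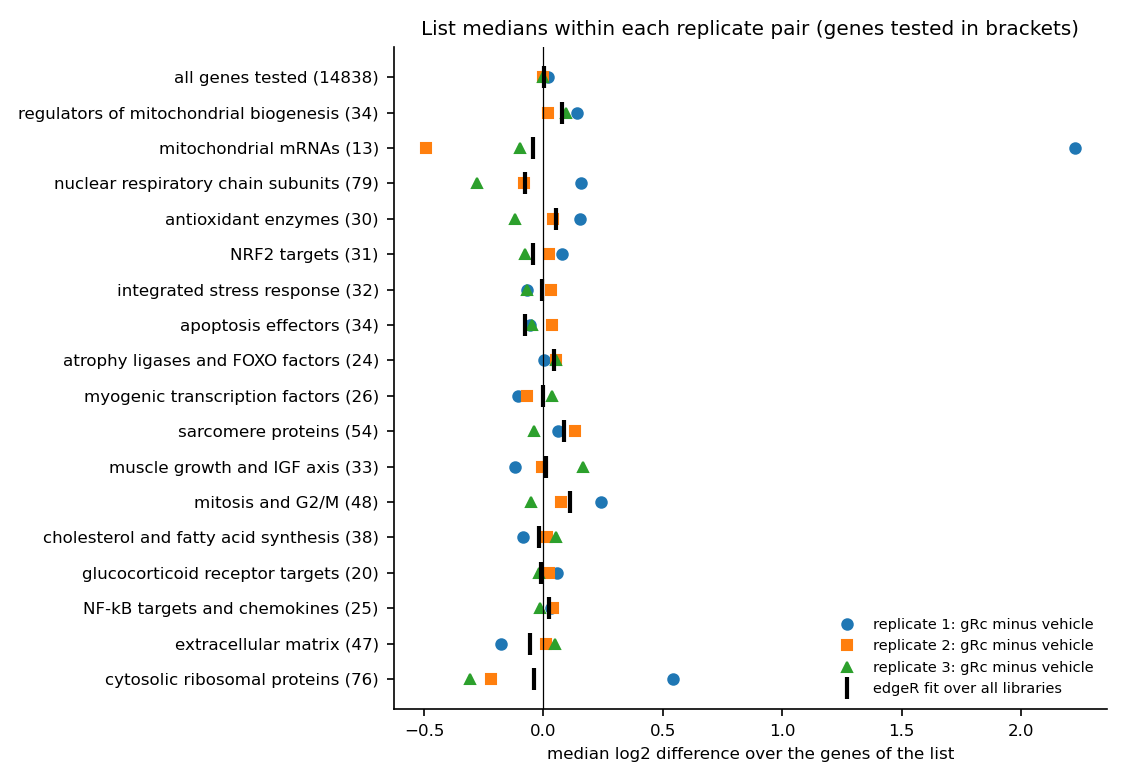
Median log2 difference between gRc and vehicle over the genes of each list (horizontal axis, log2; number of genes tested in brackets), in replicate pairs 1 (circles), 2 (squares) and 3 (triangles) and in the edgeR fit (bars). All genes center on 0 in each pair, whereas mitochondrial mRNAs lie at 2.23, -0.49 and -0.10 and cytosolic ribosomal proteins at 0.54, -0.22 and -0.31.

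Redox and stress genes gave the same picture. Of 30 antioxidant enzymes, 31 targets of NRF2, 32 genes of the integrated stress response and 34 apoptosis effectors, 0 passed in either direction, and the medians were 0.05, -0.04, -0.00436 and -0.08. Without vehicle replicate 1 they were -0.013, -0.0056, 0.043 and 0.074, so that 3 of the 4 turned in sign. The interval lay within 2-fold for 86.7% of the antioxidant enzymes and 90.6% of the integrated stress response, above the 71.4% of all genes. Among genes whose average log2 CPM reached 2, the share was 85.1%. Abcc4, an efflux pump, measured 6.38, 5.84 and 5.71 CPM in vehicle and 6.73, 7.11 and 6.94 CPM with gRc, without overlap and with a log2 fold change of 0.21 (SE 0.12). Cbr1, a carbonyl reductase, was at 23.3, 21.9 and 21.97 CPM in vehicle and 19.4, 19.5 and 19.9 CPM with gRc, also without overlap (-0.19, SE 0.12). These NRF2 targets thus lay in opposite directions. The stress cytokine Gdf15 differed by 0.22 (SE 0.14) and the methionine sulfoxide reductase Msrb1 by -0.58 (SE 0.45), the latter -0.05 without vehicle replicate 1. Glrx2, the mitochondrial glutaredoxin, was lower in all 3 pairs, at 27.2 against 19.3, 19.3 against 18.6 and 27.5 against 24.4 CPM.

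Vehicle replicate 1 carried the differences of several abundant transcripts with a high level in that library alone. The survival factor Mcl1 was at 830.1 CPM there, at 224.4 and 174.5 CPM in the other vehicle libraries and at 220.3, 302.4 and 172.6 CPM with gRc. Its log2 fold change of -0.82 was 0.22 without that library. Igfbp7, a secreted IGF-binding protein, was another, at 1664 CPM in that library against 187.1 and 264.1 CPM in vehicle and 383.0, 274.3 and 216.5 CPM with gRc, so that the fitted -1.28 (SE 0.71) became 0.37. The pro-apoptotic Bok changed sign in the same way, from -0.57 to 0.19, as did the collagen VI chain Col6a1, from -0.57 to 0.19, and the stress-induced mTOR inhibitor Ddit4, from -0.36 to 0.08. Tenascin C (Tnc), a matrix glycoprotein, measured 1392 CPM in that library and between 681.9 and 733.3 CPM in the other 5, and its -0.40 became 0.01. The median of 47 extracellular matrix genes was -0.05 with that library and 0.04 without it, and 0 passed in either fit.

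None of the genes of muscle identity and of muscle protein breakdown passed. The interval lay within 2-fold for 95.8% of atrophy ligases and FOXO factors, against 71.4% of all genes and 85.1% of those whose average log2 CPM reached 2. It did so for 73.1% of myogenic transcription factors and 79.6% of sarcomere proteins, both below that 85.1%. Myod1 stood at 209.2, 200.8 and 161.0 CPM in vehicle and 191.6, 230.6 and 162.0 CPM with gRc, and its interval ran from -0.31 to 0.38. Fbxo32 measured 81.0, 94.7 and 76.5 CPM in vehicle and 89.4, 99.1 and 85.5 CPM with gRc, slightly higher in each pair, with a log2 fold change of 0.12 and an interval from -0.16 to 0.40. Trim63 was at 36.9, 33.4 and 31.3 CPM in vehicle and 36.5, 33.9 and 27.6 CPM with gRc, an interval from -0.41 to 0.31 around a log2 fold change of -0.052 that was 0.015 without vehicle replicate 1. The intervals of both atrophy ligases lay within 1.5-fold. The list of 24 atrophy ligases and FOXO factors had a median of 0.04, 95.8% of its intervals lay within 2-fold, and 5 members (20.8%, against 7.09% of all genes) were higher in all 3 pairs and 0 lower (Fbxo32, Trim32, Foxo1, Psmd11 and Fbxo30, picked out after their values were seen). Trim32, a ligase of sarcomeric proteins, measured 22.6, 25.3 and 23.7 CPM in vehicle and 31.9, 26.6 and 26.3 CPM with gRc, without overlap (0.24, SE 0.12).

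Of 26 myogenic transcription factors 0 passed and 13 lay above 0, with a median of -0.00382, or 0.015 without vehicle replicate 1. The inhibitor of myogenesis Twist2 was at -0.21 (SE 0.18) and the class IIa deacetylase Hdac5 at -0.33 (SE 0.31), which was 0.22 without vehicle replicate 1. Of 54 sarcomere proteins 0 passed, while 40 lay above 0 (74.1%, against 50.4% of all genes) with a median of 0.08. Without vehicle replicate 1, 36 of 54 lay above 0 and the median was 0.20. The medians were 0.06, 0.13 and -0.04 in the 3 pairs, so replicate 3 did not share the direction. Perinatal myosin Myh8 was higher in each pair, at 205.7 against 276.8, 265.6 against 287.9 and 184.6 against 250.0 CPM (0.31, SE 0.17). Embryonic Myh3 differed by 0.12 with an interval from -0.57 to 0.81. The thin-filament cap Tmod1 was at 188.7, 99.1 and 101.1 CPM in vehicle and 102.2, 85.5 and 104.6 CPM with gRc, and its -0.41 became -0.04 without vehicle replicate 1. The list of muscle growth and IGF signalling held 33 measured genes, of which 0 passed, with a median of 0.01, or 0.037 without vehicle replicate 1. Pik3r1, the regulatory subunit of PI3 kinase, measured 45.6, 57.0 and 44.3 CPM in vehicle and 52.4, 54.4 and 59.1 CPM with gRc.

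Of 48 genes of mitosis 0 passed. The median was 0.11 and 35 lay above 0 (72.9%), with pair medians of 0.24, 0.07 and -0.05, and without vehicle replicate 1 the median was 0.06. Higher in all 3 pairs were 8 of 48 (16.7%) against 7.09% of all genes. Kif20b, a mitotic kinesin, measured 14.8, 22.2 and 15.2 CPM in vehicle and 22.6, 23.2 and 16.4 CPM with gRc (0.25, SE 0.19), and 0.04 after a correction for GC content. Kif23, a kinesin of cytokinesis, was at 0.19 (SE 0.15). The summed level of 5 markers of cycling myoblasts ran from 174.4 to 250.1 CPM in vehicle and from 242.6 to 288 CPM with gRc, and that of 7 myotube markers from 10410 to 11200 and from 11180 to 12030 CPM. In bulk RNA, fewer cells of a type and less RNA per cell cannot be told apart, and the part of residual cycling cells in these medians was not tested. Markers of adipocytes, osteoblasts, chondrocytes, macrophages and endothelium were summed in the same way. The chondrocyte markers summed to 34.2 to 82.3 CPM in vehicle and 46.5 to 64.8 CPM with gRc, those of osteoblasts to 12.9 to 34.8 and 18.0 to 42.5 CPM and those of adipocytes to 14.4 to 35.97 and 13.8 to 25.1 CPM. Macrophage and endothelial markers stayed at or under 1.57 CPM. The ranges of the groups overlapped in each of these lists, and 6 of the 22 markers, Plin1, Ibsp, Acan, Adgre1, Ptprc and Tie1, were at 0 in all 6 libraries.

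Lists chosen for the steroid-like structure of gRc held no gene past the threshold either. Of 20 targets of the glucocorticoid receptor 0 passed, with a median of -0.01, and of 38 genes of cholesterol and fatty acid synthesis 0 passed, with a median of -0.02, or 0.066 without vehicle replicate 1, and 92.1% of intervals within 2-fold. The desaturase Fads2 was at -0.22 (SE 0.15) and the sterol demethylase Cyp51 at -0.21 (SE 0.17), and both had the higher vehicle value in replicate 1, at 114.2 and 265.1 CPM. Without that library they were at -0.033 and 0.00094. In 25 targets of NF-kB and chemokines 0 passed. The chemokine Cxcl1 was at 0.222, 0.173 and 0.178 CPM in vehicle and 0.396, 0.487 and 0.225 CPM with gRc, a log2 fold change of 0.94 from a few counts a library (SE 0.40, edgeR adjusted p = 1), and the NF-kB subunit Rela was at -0.32 (SE 0.18). Cytosolic ribosomal proteins had a median of -0.04 over 76 genes, of which 0 passed, and pair medians of 0.54, -0.22 and -0.31, so the pair with vehicle replicate 1 differed in sign from the others. The median was -0.17 without that library, and in pairs 2 and 3 alone it was -0.24 with 6 of 76 above 0.

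The remaining 14 lists had 0 members past the threshold as well. Their medians were -0.01 for the unfolded protein response, 0.05 for heat shock chaperones, -0.02 for p53 targets, -0.01 for autophagy and mitophagy, 0.02 for fusion genes and 0.00131 for calcium handling. They were 0.00336 for DNA replication, -0.05 for LXR targets, 0.09 for targets of estrogen and xenobiotic receptors and 0.06 for fatty acid oxidation. Glycolysis and the hypoxia response were at -0.05, immediate early genes at -0.05, interferon-stimulated genes at 0.05 and replication-dependent histones at -0.08. Without vehicle replicate 1 the sign turned for the unfolded protein response (0.13), p53 targets (0.075), autophagy and mitophagy (0.033), LXR targets (0.11), targets of estrogen and xenobiotic receptors (-0.019), fatty acid oxidation (-0.00074) and histones (0.22), and calcium handling was at 0.15.

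The genes with the smallest unadjusted p in the edgeR test are listed as leads that did not pass. The ephrin receptor Epha4 (chromosome 1, 77367185 to 77515088, GRCm38) measured 6.60, 7.85 and 7.85 CPM in vehicle and 10.8, 9.18 and 10.2 CPM with gRc. The groups did not overlap, as for 129 of all genes in that direction (0.869%), and the log2 fold change was 0.43 (SE 0.15, adjusted p = 1 in edgeR). Without overlap were also Dennd2c, an exchange factor of Rab proteins, at 0.33 (SE 0.13), the DNA translocase Zranb3 at 0.37 (SE 0.16), which was -0.12 with effective-length offsets, and Syne2, which links nuclei to the cytoskeleton, at 0.30 (SE 0.13). Mrpl19, a protein of the mitochondrial ribosome, and Ttc12 were higher in each pair but overlapped, at 0.30 (SE 0.13) and 0.41 (SE 0.18). In the lower direction, the secreted Wnt modulator Sfrp2 (chromosome 3, 83766321 to 83774316) measured 7.32, 5.78 and 9.38 CPM in vehicle and 3.70, 3.90 and 5.97 CPM with gRc. It was lower in every pair, the groups overlapped through gRc replicate 3, and the log2 fold change was -0.73 (SE 0.28, adjusted p = 1 in edgeR). The other 5 in that direction rested more on vehicle replicate 1. Without that library Ccdc166 went from -0.54 to -0.19, Mrpl20 from -0.43 to -0.21, Rpl27a from -0.39 to -0.28, Prrg2 from -0.49 to -0.17 and Hsbp1 from -0.65 to -0.19.

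Comparison within replicate numbers removed the differences between pairs and brought forward other genes. The retinaldehyde reductase Dhrs3 (chromosome 4, 144892827 to 144928209), which limits retinoic acid, measured 17.8, 15.9 and 16.0 CPM in vehicle and 21.0, 21.1 and 19.9 CPM with gRc. It was higher by 0.24, 0.41 and 0.31 in the 3 pairs, and the groups did not overlap. Microtubule-associated Map2 was higher by 0.76, 0.05 and 0.58 and the chromatin reader Phip by 0.40, 0.09 and 0.54. Lower in all pairs were Rps16 of the small ribosomal subunit, by -0.35, -0.42 and -0.42, the adaptor Fyb, by -0.58, -0.46 and -0.45, and the translocon subunit Sec61b, by -0.60, -0.51 and -0.35. Timp1, an inhibitor of matrix metalloproteinases, measured 267.7, 221.5 and 358.7 CPM in vehicle and 211.9, 135.7 and 299.8 CPM with gRc, lower by -0.34, -0.71 and -0.26. The unadjusted p of these genes in the edgeR fit with the replicate block ran from 0.0245 for Sec61b to 0.0834 for Dhrs3, and every adjusted p was 1. By their number of 50-base words, Timp1 (886), Sec61b (1251) and Rps16 (1263) are small and Phip (33574) and Map2 (16910) large. Dhrs3 (3058) and Fyb (5375) lie between. The part of the length trend of replicate 3 in these differences was not tested.

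**Figure D3:**
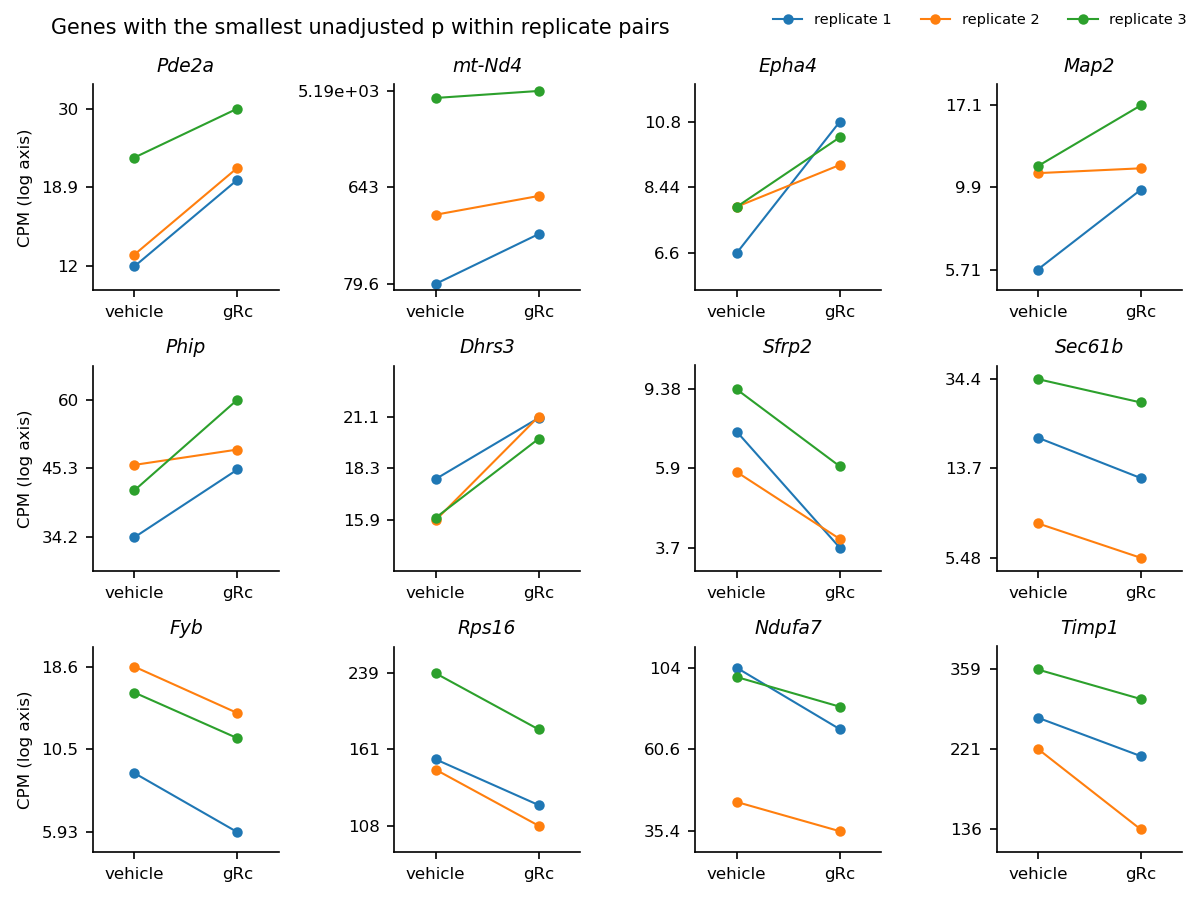
CPM (vertical axes, log scale) of the 12 genes with the smallest unadjusted p in the fit with the replicate block and the same sign in all pairs, with a line joining vehicle to gRc for each replicate number. Dhrs3 and Epha4 separate the groups, whereas for mt-Nd4, Sec61b, Ndufa7 and Timp1 the replicate numbers lie farther apart than the groups.

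The clearest difference within pairs lay in a gene that overlaps another, and whether shared fragments account for it was not tested. Gm45140, a predicted protein-coding gene (chromosome 6, 87788861 to 87835795) that falls outside the rule for named genes and was singled out after its values were seen, had the smallest unadjusted p of the fit with the replicate block (0.000587, edgeR), and DESeq2 with that block gave it an adjusted p of 0.0103. It measured 13.2, 19.2 and 22.1 CPM in vehicle and 5.00, 6.58 and 11.1 CPM with gRc. The gene overlaps Rab43 (87788853 to 87812164), a small GTPase of Golgi transport, and 93.5% of its 50-base words occur in other genes, 79.8% in Rab43. Rab43 measured 64.3, 32.9 and 32.4 CPM in vehicle and 38.7, 45.1 and 42.5 CPM with gRc, higher by 0.45 and 0.39 in replicates 2 and 3 where Gm45140 was lower. The sum of the pair was 77.5, 52.1 and 54.6 CPM in vehicle and 43.7, 51.6 and 53.5 CPM with gRc, which left -0.83 in replicate 1 and -0.01 and -0.03 in replicates 2 and 3. Pde2a, the cyclic nucleotide phosphodiesterase with the smallest unadjusted p of the higher genes within pairs (0.00973, edgeR), shared 62.8% of its words with the overlapping Gm45837 in the same way. Pde2a was at 11.97, 12.8 and 22.5 CPM in vehicle and 19.8, 21.2 and 29.9 CPM with gRc, while Gm45837 was at 8.59, 8.02 and 4.10 CPM in vehicle and at 4.46, 0 and 0 CPM with gRc. The differences of Pde2a of 0.73, 0.73 and 0.41 became 0.24, 0.03 and 0.17 for the sum. Mrpl19 shared 35.5% of its words with the neighbouring Gcfc2, and the sum was higher by 0.41, 0.15 and 0.24. For Rps16, which shares 31% of its words with the copy Rps16-ps2, the sum remained lower by -0.34, -0.43 and -0.41. Dhrs3, Hsbp1 and Timp1 shared 0% of their words with other genes and Epha4 shared 0.0982%.

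**Figure D4:**
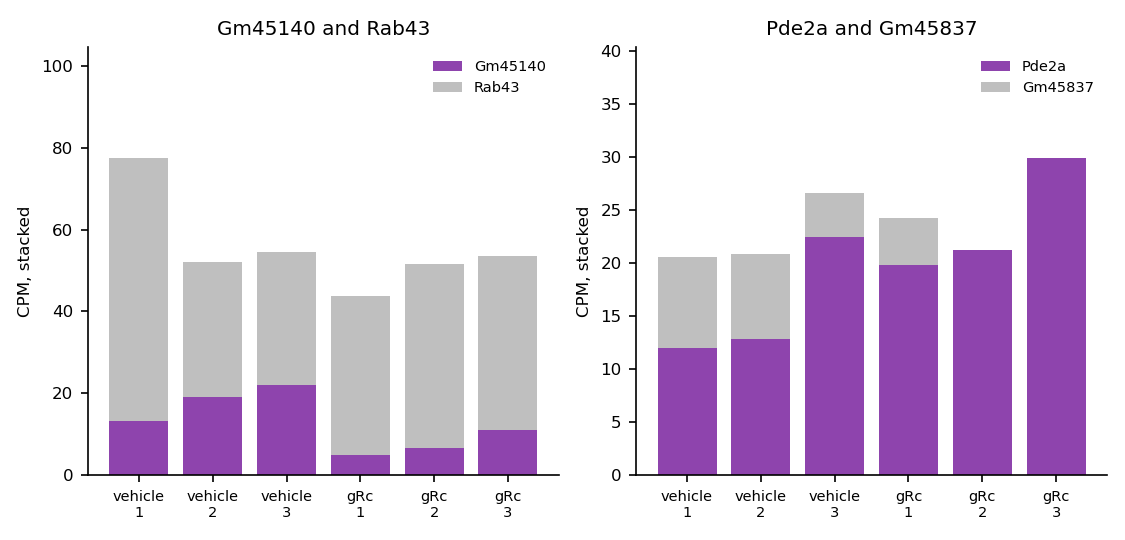
Stacked CPM (vertical axes) of Gm45140 with Rab43 and of Pde2a with Gm45837 in the 6 libraries (horizontal axes). The colored part differs between vehicle and gRc. For the first pair of genes the whole bar falls from 77.5 to 43.7 CPM in replicate 1. Those of replicates 2 and 3 stay at 52.1 and 54.6 against 51.6 and 53.5 CPM. For Pde2a with Gm45837 the whole bars measure 20.6, 20.8 and 26.6 CPM in vehicle and 24.3, 21.2 and 29.9 CPM with gRc.

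The gRc effect without H2O2 was compared directly with its effect in H2O2-treated myotubes, which used other libraries. The test of the difference passed for 0 of 14838 genes (0%), with 87 (0.586%) at an unadjusted p under 0.05. That share was again far below the 0.05 that a calibrated test gives without any effect. DESeq2 called 1, the predicted gene Gm7645 (adjusted p = 0.0164), which had 17, 18 and 5 counts in vehicle and 25, 31 and 9 with gRc but 24, 23 and 20 with H2O2 and 0 in all 3 libraries of gRc+H2O2; it was named after its values were seen. Differences of the same sign were found in 64.6% of genes in the 2 settings, and the log2 fold changes correlated across the 14838 genes at 0.235. This likeness was uneven: the differences of replicate 1 correlated with those of the 3 stressed pairs at 0.51, 0.35 and 0.359, those of replicate 2 at -0.361, -0.318 and -0.286, and those of replicate 3 at 0.0515, 0.0376 and -0.0495. Of the 12 genes leading within pairs, 8 had the same sign in the stressed setting, a share close to the 64.6% of all genes. The others, Sec61b, Fyb, Rps16 and Timp1, were lower without H2O2 and at 0.17, 0.46, 0.083 and 0.14 in the stressed setting. Dhrs3 was higher there by 0.57, 0.72 and 0.34, from 6.76, 6.17 and 5.75 CPM with H2O2 to 10.1, 10.2 and 7.28 CPM with gRc+H2O2. Map2 was higher there by 0.66, 0.27 and 0.31, whereas Sfrp2 was at 0.00, -0.20 and -1.01. Averaged over the 6 pairs of both settings, Dhrs3 differed by 0.43 (SE 0.09) and Map2 by 0.44 (SE 0.12), and the adjusted p of both was 0.49 (edgeR). This average includes the 3 unstressed pairs from which both genes were selected, so it is not independent support. Among all 14838 genes, 224 were higher and 207 lower in all 6 pairs. Neither count exceeds what signs at random would give, so they are not read as a recurring response. Mrpl19 had the smallest unadjusted p of the difference among known genes. It was higher by 0.47, 0.20 and 0.22 without H2O2 and at -0.34, -0.09 and -0.35 with it, a difference of -0.57 (SE 0.19, adjusted p = 1 in edgeR). Rela, Med7 and Tmem252 lay on the other side, with differences of 0.64 (SE 0.26), 0.52 (SE 0.21) and 0.79 (SE 0.30), while Zfp445 and Syne2 were at -0.62 (SE 0.24) and -0.46 (SE 0.19), and none of these passed the adjustment.

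**Figure D5:**
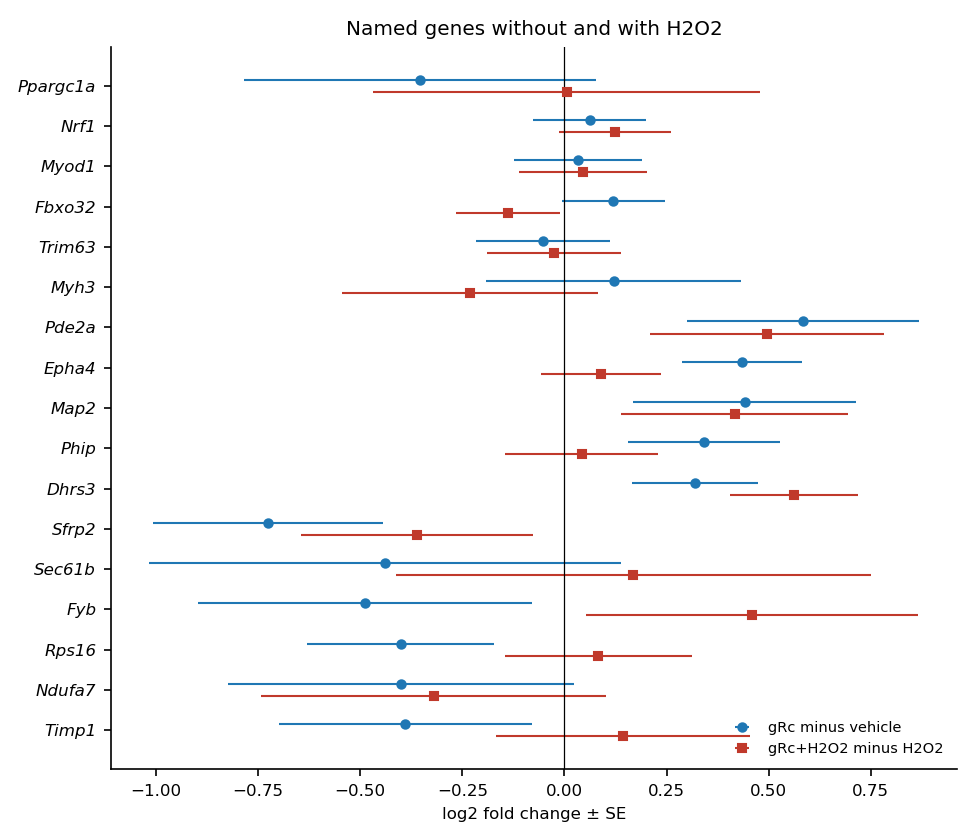
Log2 fold change of gRc against vehicle (circles) and of gRc+H2O2 against H2O2 (squares), with bars of 1 SE, for 6 genes of mitochondrial regulation, muscle identity and atrophy and for the genes leading within pairs except mt-Nd4 (SE 1.297). Most bars of the first 6 genes cross 0 in both settings, and Dhrs3 lies at 0.32 and 0.56.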

How the data were processed

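Poly(A) RNA of C2C12 cells was sequenced as directional paired-end libraries, 3 per group. Per the labels and the methods, the authors aligned reads with STAR (2.7.3a) to GRCm38 and deposited, per library, RSEM (1.3.3) expected counts (not normalized), TPM and effective lengths. RSEM splits fragments between similar genes; its strand setting is not given in the sources used here. The deposited FPKM were not used. Expected counts were rounded and 48795 genes filtered by filterByExpr. The main test was edgeR (4.0.16, R 4.3.3) with TMM factors, 1 mean per group over all 12 libraries, a quasi-likelihood F test and Benjamini-Hochberg adjustment at 0.05. Each SE is the absolute log2 fold change over the root of its F statistic. CPM use the TMM library sizes.

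Replicate numbers were used to pair the gRc and vehicle libraries: deviations from group means correlated at 0.460, 0.271 and 0.860, above 0.1 in every pair. Vehicle replicates 2 and 3 and gRc replicates 1 and 3 correlated best with the library of their own number in the other group. Vehicle replicate 1 and gRc replicate 2 did not, so the pairing is uncertain for numbers 1 and 2. Whether replicates came from separate cultures is not labelled, so the p-values rest on library spread that may be technical. Library totals of 19274729 to 31409056 limit precision, and intervals also carry the library spread.

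The comparison, the 31 gene lists and the tests were chosen with earlier results of these data known. Named genes were those of proteins the study measures (1 is not reported here), the 6 of smallest p in each direction without and with the block (the same sign in all pairs), 2 per list described (17 lists) and 3 per direction in the test of the difference. Outside the lists they needed an average log2 CPM of at least 2 and a symbol of a known gene. Shared words of 50 bases came from GENCODE vM21 transcripts (GRCm38). Alternatives were DESeq2 (1.42.0), other size factors, filters, the replicate block, limma (3.58.1) on log2(TPM + 0.5), effective-length offsets, no mitochondrial genes, a GC correction, and leaving out each library or pair. Scripts were tested on simulated data.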

Additional observations from a re-analysis of the deposited data

How the results depend on the processing

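The count of 0 genes for gRc against vehicle held under DESeq2, other size factors, either filter, the 6 libraries alone, limma on TPM, effective-length offsets, removal of mitochondrial genes, the GC correction and the replicate block, which changed no call (0 with the replicate block over 12 or over 6 libraries). Leaving out libraries or pairs gave 0 to 42 calls. The 42 (19 higher, 23 lower) came from the block fit without pair 1, which has 4 libraries, and the block fit without pair 3 gave 2, both higher. Without pair 2 there were 0. Of the 42, 34 are predicted genes or pseudogenes, and the other 8 are Dbi, Rps29, Rpl24, mt-Co3, mt-Nd4l, Appbp2os, Rnaset2b and BC037039, named after their values were seen. The cause was not tested. DESeq2 with the replicate block over 6 libraries, added after seeing the data, called 2, Gm45140 and Gm11973 (adjusted p = 0.0445), the latter with 131 counts in vehicle replicate 1 and at most 3 in the other 5 libraries. For the difference between settings 26 alternatives gave 0 except DESeq2, which gave 1.

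Of the values of named genes under alternatives, 1483 kept their sign and side of the threshold, 3 passed it (mt-Nd4l once, Gm45140 in the others) and 51, in 22 of 64 results, changed sign. Leaving out libraries or pairs gave log2 fold changes of -0.69 to 0.13 for Ppargc1a, -0.046 to 0.23 for Nrf1, -0.12 to 0.145 for Myod1, -0.16 to 0.052 for Trim63, -0.15 to 0.34 for Myh3, -2.09 to 3.16 for mt-Nd4, -1.19 to 0.16 for Sec61b, -0.92 to 0.17 for Esrra, -1.96 to 1.3 for mt-Nd4l, -1.21 to 0.13 for Cox6b1, -0.55 to 0.083 for Ddit4, -1.20 to 0.22 for Mcl1, -0.89 to 0.19 for Bok, -0.59 to 0.22 for Hdac5, -1.74 to 0.37 for Igfbp7, -0.34 to 0.035 for Fads2, -0.33 to 0.00094 for Cyp51, -0.60 to 0.029 for Tnc and -0.90 to 0.19 for Col6a1. Other sign changes were with limma on TPM (Ppargc1a 0.046, Trim63 0.0079, mt-Nd4l 0.063, Cyp51 0.063), effective-length offsets (Zranb3 -0.12, Cyp51 0.013) and the mean over the 6 pairs of both settings, added after seeing the data (Fbxo32 -0.0069, Myh3 -0.057, Fyb 0.0076, mt-Nd4l 0.42). None of these genes passed the main test. Ppargc1a, at about 1 CPM, rests on 7 to 40 counts a library.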
